A study of Homo sapiens with 2 samples.

Results

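Aminoacyl-tRNA synthetases are the enzymes that load each amino acid onto its transfer RNA. The genes described here are the 20 cytosolic synthetase genes, 16 mitochondrial synthetase genes and the 2 scaffold genes AIMP1 and AIMP2, chosen by gene name from a fixed list of 38 symbols. All 38 were found among the 60623 named genes of the count table, and all 38 passed the expression filter, a mean over both libraries of 1 CPM or more (CPM is the count scaled to library size), as did 13217 genes in all. RNA was sequenced from HCT116, a line of human colon carcinoma cells that the labels give as wild type, after lipid transfection with either a non-specific siRNA (siControl) or an siRNA against KAT7 (siKAT7). KAT7, also named HBO1, is a histone acetyltransferase. Each group had 1 library, so no difference has a replicate check, and every interval below is an exact 95% interval that covers counting error only.

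A synthetase activates its amino acid with ATP and transfers it to the matching tRNA, which the ribosome then reads. Cells keep separate sets of these enzymes for the cytosol and for mitochondria, and the mitochondrial enzymes are made from nuclear genes and imported. Exceptions to this division are GARS and KARS, each of which encodes a cytosolic and a mitochondrial form from 1 gene. The cytosolic EPRS protein joins the glutamyl and prolyl enzymes in a single chain. Several cytosolic synthetases are held in a multi-synthetase complex by the AIMP scaffold proteins. Many cytosolic synthetase genes are known targets of ATF4, the transcription factor that is translated when the initiation factor eIF2 is phosphorylated during amino acid shortage or other stress.

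The siControl library held 23450331 expected counts over named genes and the siKAT7 library 23533186. For KAT7 itself the values were 442.94 and 287.22 expected counts, so siKAT7 held 69.6% of the siControl level after scaling (59.7% to 80.8%). Of 9 colon epithelial markers, 6 passed the filter, and their summed level was 11730 CPM in siControl and 12410 CPM in siKAT7. Of 6 fibroblast and 6 blood cell markers, 1 each passed the filter, and LUM and PTPRC had 0 counts in both libraries. None of the 4 endothelial markers passed, and PECAM1, CDH5 and KDR had 0 counts. The summed fibroblast level was 31.8 CPM in siControl and 31.7 CPM in siKAT7, the blood level 81.7 and 93.3 CPM, and the part of these markers in the results was not tested.

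No synthetase or scaffold gene differed by 1.5-fold or more between the libraries. The cytosolic genes lay close to no difference, with log2 ratios (siKAT7 over siControl) from -0.34 to 0.26 and a median of -0.02. The mitochondrial genes ran from -0.56 to 0.41 with a median of -0.21, and 12 of the 16 lay below 0. The scaffold genes AIMP1 and AIMP2 had log2 ratios of -0.12 and -0.21. Over all 13217 genes the median log2 ratio was -0.0048. In bulk RNA of this kind, fewer cells that express a gene and less of its RNA in each cell cannot be told apart.

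A gene was counted as 1.5-fold different when its log2 ratio passed that size and its counting interval excluded 0. By that rule 0 of 38 members were higher and 0 were lower, against 3.92% of all genes higher and 3.91% lower. KAT7, the siRNA target, did not pass that rule either, at a log2 ratio of -0.52 (-0.74 to -0.31). A looser count takes only the interval. It lay above 0 for 7 cytosolic, 1 mitochondrial and 0 scaffold genes, against 23.0% of all genes, and below 0 for 4 cytosolic, 8 mitochondrial and 1 scaffold gene, against 22.0% of all genes. Where the mean reached 10 CPM, as it did in 7834 genes, intervals are narrower and these shares were 29.98% above and 26.68% below. Scaling matters for such small ratios. Total-count scaling in place of TMM moved the log2 ratios of all genes by a median of -0.11, turned 518 higher and 517 lower genes at 1.5-fold into 360 (2.72%) and 838 (6.34%), and put 3 of the 38 members, all mitochondrial, past 1.5-fold lower. Under it the interval lay above 0 for 2 cytosolic and 1 mitochondrial gene, against 13.3% of all genes, and below 0 for 9 cytosolic, 10 mitochondrial and 1 scaffold gene, against 35.6%. Under that scaling the median was -0.11 over all genes, -0.13 over cytosolic genes and -0.32 over mitochondrial genes.

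**Figure D1:**
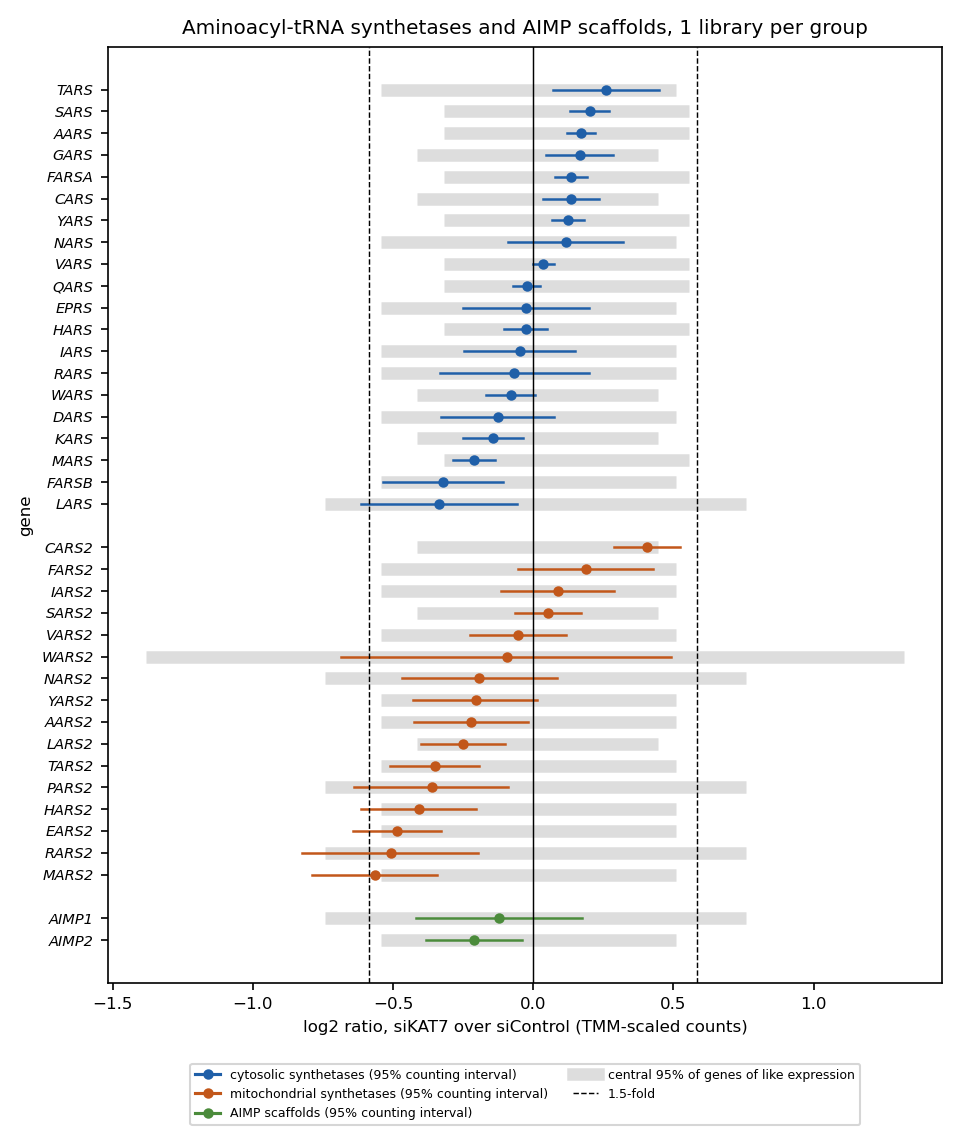
Log2 ratio of siKAT7 over siControl on the horizontal axis for each of the 38 genes, by group; points are the ratios, thin lines the exact 95% counting intervals, grey bars the central 95% of all genes in the same band of mean CPM, and dashed lines 1.5-fold. All 38 points lie between the dashed lines, and only MARS2, at -0.56, lies outside its grey bar.

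Among cytosolic enzymes the highest ratios belonged to the threonyl, seryl, alanyl, glycyl, phenylalanyl and cysteinyl genes. For TARS, the threonyl enzyme, siControl gave 438 expected counts and siKAT7 489, a log2 ratio of 0.26 (0.07 to 0.45). SARS, for serine, had 3203 and 3432 counts and a ratio of 0.20 (0.13 to 0.27). AARS, for alanine, had 6593 and 6915 counts and a ratio of 0.17 (0.12 to 0.22). In each of these genes the siKAT7 library had the higher count. GARS, for glycine, had 1117 and 1166.88 counts and a ratio of 0.17 (0.05 to 0.28). FARSA, which encodes the alpha subunit of the phenylalanyl enzyme, had 5018 and 5131 counts and a ratio of 0.13 (0.08 to 0.19), and CARS, for cysteine, had 1622.98 and 1658.53 counts and the same rounded ratio of 0.13 (0.03 to 0.23). The interval of the tyrosyl gene YARS, at 0.12, also lay above 0 (0.07 to 0.18). With total-count scaling the intervals of AARS and SARS alone stayed above 0 among these 7 genes, at 0.06 and 0.09.

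At the other end stood the leucyl, phenylalanyl beta, methionyl and lysyl genes, the 4 cytosolic genes whose intervals lay below 0. LARS, for leucine, had 256.13 counts with siControl and 189 with siKAT7, a log2 ratio of -0.34 (-0.61 to -0.06). FARSB, the beta subunit of the phenylalanyl enzyme, had 424 and 316 counts and a ratio of -0.32 (-0.54 to -0.11). MARS, for methionine, had 3196.23 and 2574.42 counts and a ratio of -0.21 (-0.29 to -0.13). These are 79.3%, 80.0% and 86.4% of the siControl level. KARS, for lysine, had 1537 and 1297 counts and a ratio of -0.14 (-0.25 to -0.04). DARS, for aspartate, had 443.99 and 379 counts and a ratio of -0.13 (-0.33 to 0.07). WARS, for tryptophan, had 2289.67 and 2018.33 counts and a ratio of -0.08 (-0.17 to 0.01). Both intervals included 0. The remaining cytosolic genes with intervals that included 0 were RARS (-0.07), IARS (-0.05), HARS (-0.03), EPRS (-0.02), QARS (-0.02), VARS (0.04) and NARS (0.12), for arginine, isoleucine, histidine, glutamate with proline, glutamine, valine and asparagine.

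The 2 subunits of the phenylalanyl enzyme did not have the same ratio. The difference between FARSA and FARSB was 0.46 on the log2 scale, and its exact counting interval, which does not depend on the scaling, ran from 0.24 to 0.68. Their proteins join in 1 enzyme.

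The cytosolic enzymes were divided by membership of the multi-synthetase complex. All 8 complex enzymes (EPRS, IARS, LARS, QARS, MARS, KARS, RARS and DARS) had log2 ratios below 0, with a median of -0.10 and 3 intervals below 0, against 22.0% of all genes, while 5 intervals included 0. Of the 12 enzymes outside the complex, 9 lay above 0, with a median of 0.13 and 7 intervals above 0, against 23.0% of all genes, and 1 interval, that of FARSB, below 0. The ranges overlapped, since FARSB (-0.32), WARS (-0.08) and HARS (-0.03) lay below QARS (-0.02) and EPRS (-0.02), and the difference between the groups was not tested. Over all genes 50.7% lay below 0 and 49.3% above. The division of the enzymes outside the complex was added after values were seen. With total-count scaling all 8 complex enzymes still lay below 0, with a median of -0.20, and 8 of the 12 others lay above 0, with a median of 0.02. For the scaffold gene AIMP1 siControl gave 208.52 counts and siKAT7 179, a ratio of -0.12 (-0.42 to 0.17). AIMP2 had 632.57 and 509.89 counts and a ratio of -0.21 (-0.38 to -0.04). EEF1E1, which encodes the remaining scaffold of the complex, is no member of the set and is named because its ratio had the opposite sign, with 475.85 and 617.55 counts and a ratio of 0.48 (0.30 to 0.65). By catalytic fold, the 10 class II genes had a median of 0.13 and the 9 class I genes -0.05, with EPRS, which holds a domain of each class, left out of both.

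The cytosolic genes were also divided by whether they are commonly reported as ATF4 targets. The 12 with such reports (AARS, CARS, EPRS, GARS, IARS, LARS, MARS, NARS, SARS, TARS, WARS and YARS) had a median log2 ratio of 0.12, with 7 above 0 and 6 intervals above 0, against 49.3% and 23.0% of all genes. The other 8 had a median of -0.05, with 2 above 0 and 1 interval above 0. With total-count scaling these medians were 0.01 and -0.15. Among the 12, 2 intervals then lay above 0 and 3 below, and among the 8, 0 lay above and 6 below, against 13.3% and 35.6% of all genes. Neither group held a gene past 1.5-fold. The largest ratio among the 12 was that of TARS, 119.8% of the siControl level, and the lowest that of LARS.

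ATF4 binds with C/EBP partners to a composite DNA element whose core reads TGATGCAA. RefSeq windows from 250 bases before to 50 bases after the gene start (GRCh38.p14) were matched for 32 of the 38 genes and searched on both strands for that core and for TGATGNAA, of which it is 1 form. DARS, LARS, VARS, YARS, AARS2 and VARS2 were not matched. The strict core was found in 6 of 16 cytosolic windows (37.5%), 0 of 14 mitochondrial windows and 0 of 2 scaffold windows, against 0.923% of all 27305 windows and 0.469% of the 10022 windows of genes that passed the expression filter. The looser form added 1 match, in YARS2. It was found in 3.67% of all windows and in 1.5% of those of genes that passed the filter. Among the other ATF4 targets described further on, the strict core was found in 1 of 25 matched windows (4%), that of CHAC1. The looser form was found in 5 of these 25 windows (20%). The sequences are shown because all 6 strict matches in cytosolic windows fall among the genes reported as ATF4 targets. These genes hold 10 of the 16 matched cytosolic windows, and 0 of the other 6 windows held the core. The difference was not tested. Each line gives the gene strand, 5′ to 3′, with 10 bases on either side and the core in capitals; where the core lies on the opposite strand it appears as TTGCATCA.

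AARS: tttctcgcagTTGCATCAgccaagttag
CARS: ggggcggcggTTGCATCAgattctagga
IARS: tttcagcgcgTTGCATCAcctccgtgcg
MARS: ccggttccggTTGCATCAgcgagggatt
NARS: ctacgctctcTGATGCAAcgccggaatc
TARS: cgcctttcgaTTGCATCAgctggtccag

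The 28 printed bases of AARS lie at chr16:70289676-70289703, and the core is centred 183 bases before the RefSeq gene start on the reverse strand. The other 5 cores lie within 18 bases of the start. For IARS the printed bases are chr9:92293693-92293720 on the reverse strand, with the core centred 9 bases before the start. For MARS they are chr12:57488054-57488081 on the forward strand, with the core centred at the start itself. The cores within the printed bases of CARS (chr11:3057408-3057435, reverse), TARS (chr5:33440957-33440984, forward) and NARS (chr18:57621805-57621832, reverse) are centred 2, 6 and 18 bases after the start. The core sequence is thus shared, but the ratios of the 6 genes were not alike. They ran from -0.21 for MARS to 0.26 for TARS, with a median of 0.13, and 4 of 6 lay above 0. The 10 cytosolic genes with a matched window and no strict core had a median of -0.03, and 3 lay above 0. Among genes that are no member, 41 had the strict core and a median log2 ratio of 0.10, with 58.5% above 0, and 9949 had none and a median of -0.01, with 48.6% above 0. A match is a stretch of letters and says nothing of binding in these cells.

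Mitochondrial enzymes mostly had lower levels in siKAT7. MARS2, the mitochondrial methionyl enzyme, had 435 counts with siControl and 274 with siKAT7, 67.6% of the siControl level (57.9% to 78.8%) and a log2 ratio of -0.56 (-0.79 to -0.34). RARS2, for arginine, had 217.17 and 142 counts and a ratio of -0.51 (-0.83 to -0.20). EARS2, which loads glutamate, had 846 and 563 counts and a ratio of -0.49 (-0.64 to -0.33). These genes are the 3 that passed 1.5-fold lower with total-count scaling, at -0.67, -0.62 and -0.59. MARS2 lay just beyond the central 95% of 3159 genes whose mean CPM lay between 10 and 30, which ran from -0.54 to 0.51, and the other 37 members lay within the range of their bands.

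A further 5 mitochondrial genes had intervals below 0. HARS2, for histidine, had 477 and 335 counts and a ratio of -0.41 (-0.61 to -0.20). PARS2, for proline, had 265 and 192 counts and a ratio of -0.36 (-0.64 to -0.09). TARS2, for threonine, had 772 and 563.58 counts and a ratio of -0.35 (-0.51 to -0.19). In these genes the siKAT7 library held 75.4%, 77.8% and 78.4% of the siControl level. LARS2, for leucine, was at -0.25 (-0.40 to -0.10) and AARS2, for alanine, at -0.22 (-0.43 to -0.02). YARS2 (-0.21), NARS2 (-0.19), WARS2 (-0.09) and VARS2 (-0.05) had intervals that included 0. WARS2 rested on 55 and 48 counts, with an interval of -0.68 to 0.49, so a level 1.5-fold lower in siKAT7 lies within its counting error. The same holds for MARS2, RARS2, EARS2, HARS2, PARS2 and the cytosolic LARS, whose intervals also reached past 1.5-fold lower.

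CARS2, the mitochondrial cysteinyl enzyme, stood apart from the others as the member with the highest ratio. It had 1046.6 counts in siControl and 1291.93 in siKAT7, 132.4% of the siControl level and a log2 ratio of 0.41 (0.29 to 0.52). FARS2, for phenylalanine, had 280 and 297 counts and a ratio of 0.19 (-0.05 to 0.43). IARS2, for isoleucine, had 411 and 407 counts and a ratio of 0.09 (-0.11 to 0.29). SARS2, for serine, had 1191.43 and 1151.7 counts and a ratio of 0.05 (-0.06 to 0.17). The ratios of IARS2 and SARS2 turned to -0.02 and -0.05 with total-count scaling, as that of VARS did to -0.07. CARS2 was 0.30 under that scaling.

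Summed over genes, the cytosolic set held 53897 expected counts in siControl and 51939 in siKAT7, a log2 ratio of sums of 0.05 (0.03 to 0.07). The mitochondrial set held 8487 and 7309 counts, a ratio of -0.11 (-0.16 to -0.07). The mitochondrial genes with the most counts in siControl, SARS2 (1191.43) and CARS2 (1046.6), both had ratios above 0. With total-count scaling the sums had ratios of -0.06 and -0.22.

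For 13 amino acids the cytosolic and the mitochondrial enzyme have a gene each in the set, so the pair can be compared within the same libraries. The difference between their ratios does not depend on the scaling. The cytosolic gene had the higher ratio in 10 of 13 pairs, with a median difference of 0.31. The exact interval of the difference lay above 0 in 7 pairs, below 0 in 1 and included 0 in 5. The widest gap was that of TARS and TARS2, at 0.61 (0.36 to 0.86), since TARS was higher in siKAT7 and TARS2 lower. RARS and RARS2 differed by 0.44 (0.03 to 0.86), AARS and AARS2 by 0.39 (0.18 to 0.60), HARS and HARS2 by 0.38 (0.16 to 0.60), and MARS and MARS2 by 0.35 (0.12 to 0.59). YARS with YARS2 (0.33) and SARS with SARS2 (0.15) were the other pairs above 0. The pair in the opposite direction was CARS and CARS2, at -0.27 (-0.43 to -0.12). Over all genes the median log2 ratio was -0.04 at a mean of 10 to 30 CPM and 0.07 over 100 CPM. The part of expression level in the pair differences was not tested.

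**Figure D2:**
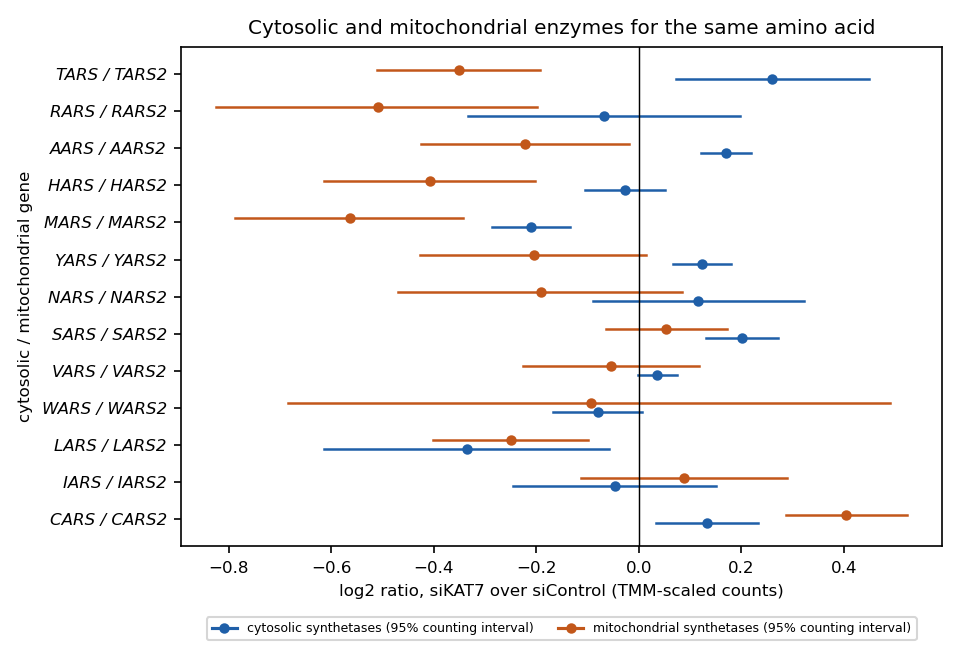
Log2 ratio of siKAT7 over siControl for the cytosolic (blue) and mitochondrial (orange) gene of each of 13 amino acids, with exact 95% counting intervals, ordered by the difference between the genes. The blue point lies to the right of the orange in 10 of 13 pairs, and CARS with CARS2 shows the reverse.

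Levels per length differed far more between genes than between libraries. On the scale of CPM per kb of listed gene length, the cytosolic genes ran from 2.21 (LARS) to 122.6 (QARS) in siControl, with a median of 25.1, and from 1.75 to 120.6 in siKAT7. By listed length QARS, VARS (113.7) and FARSA (100.2) were the most abundant in siControl. VARS had the most counts of all members, 11377 in siControl and 10865 in siKAT7. The mitochondrial genes ran from 0.807 (WARS2) to 30.02 (SARS2), with a median of 6.88, and in siKAT7 from 0.756 to 31.2 with a median of 5.96. The cytosolic gene had the higher level in 10 of the 13 pairs. The listed lengths ran from 0.176 (CARS2) to 2.01 (FARSB) times the summed exon bases of the GENCODE 29 models. With those exon bases as the length, a choice made after seeing the data, the medians in siControl were 12.8 and 4.48, and the cytosolic gene was higher in 9 of 13 pairs, RARS being the pair that turned. By exon bases the order of the highest 3 was FARSA (84.6), VARS (76.9) and QARS (63.8). FARSB had 2.58 by its listed length and 5.17 by its exon bases, and CARS2 had 23.4 and 4.11. WARS had 56.0 times the level of WARS2 in siControl, and AARS 20.1 times that of AARS2. LARS, TARS and IARS were lower than their mitochondrial counterparts, at 0.313, 0.613 and 0.825 times. The ratio of CARS to CARS2 was 1.03 in siControl and 0.856 in siKAT7 by listed length. AIMP2 had 21.7 and 18.8 CPM per kb in siControl and siKAT7, and AIMP1 had 3.33 and 3.06.

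**Figure D3:**
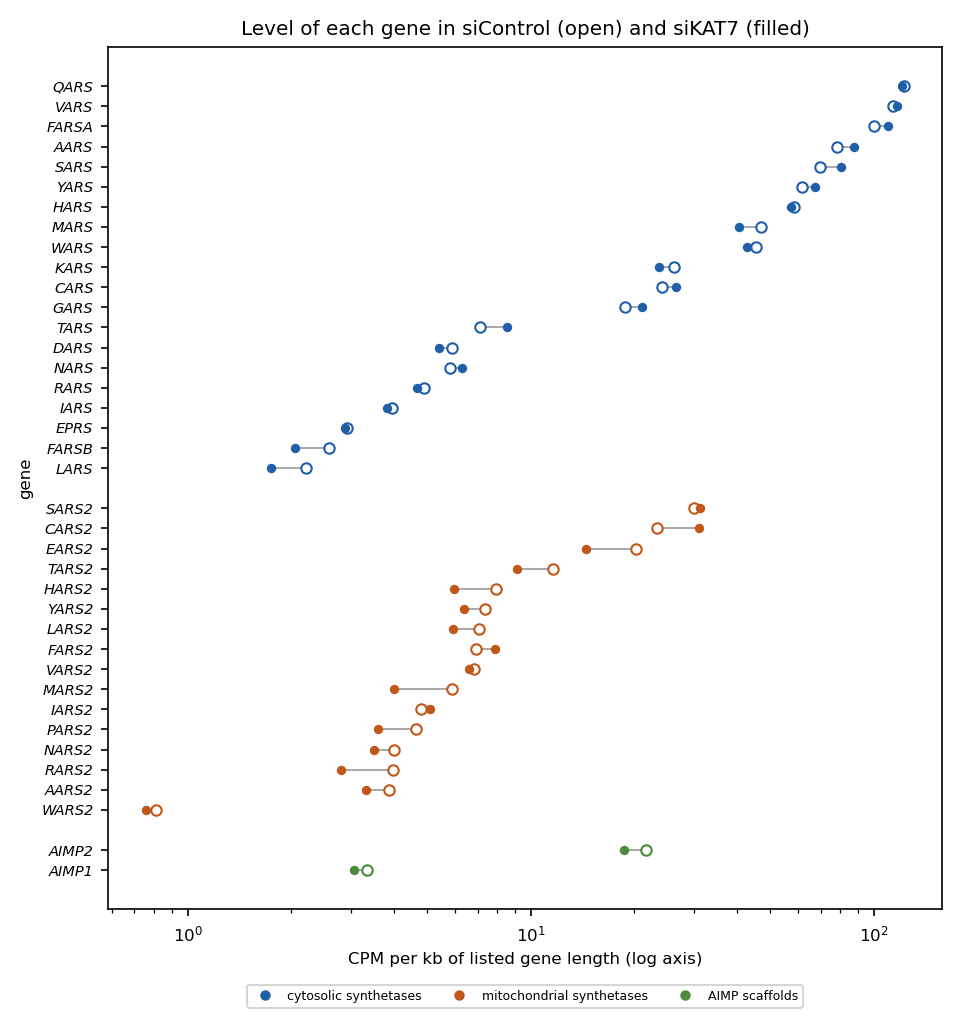
Level of each gene as CPM per kb of listed length on a log axis, siControl as open and siKAT7 as filled points, 1 library each, ordered within groups by siControl. Levels run from 0.807 (WARS2) to 122.6 (QARS) in siControl, and the distance between open and filled points is small beside that range.

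Some gene models overlap others, and the sources used here do not say whether counting used strand. MARS (GRCh38 chr12:57475445-57517569, forward) shares 355 exon bases (5.05% of its exons) with DDIT3 on the opposite strand. DDIT3, which encodes the stress factor CHOP, had 6040.71 counts in siControl and 11459.98 in siKAT7, a log2 ratio of 1.03 (0.98 to 1.07). Without strand, reads in the shared bases cannot be told apart. GARS shares 99 exon bases with the divergent transcript GARS-DT, which had 44.11 and 69.12 counts and a ratio of 0.74 (0.18 to 1.33). HARS and HARS2 start 436 bases apart on opposite strands of chromosome 5 and share 437 exon bases, 11.7% of the exons of HARS2. HARS had 2773.09 and 2535.29 counts and a ratio of -0.03 (-0.11 to 0.05). AIMP2 shares 28.9% of its exon bases with the eIF2 kinase gene EIF2AK1 on the opposite strand, which had a ratio of -0.0007. SARS2 shares 46.2% of its exon bases with AC011455.2 on the same strand, and with the counts of that model added its ratio was 0.02 (-0.10 to 0.14). VARS2 shares 22.0% with GTF2H4, and the sum had a ratio of 0.04 (-0.05 to 0.13). HARS2 shares 152 exon bases, 4.07% of its exons, with ZMAT2 on the same strand, and that sum was not computed. ZMAT2 had a ratio of 0.15 (-0.02 to 0.32).

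ATF4 had 17810 counts in siControl and 25299.97 in siKAT7, a log2 ratio of 0.61 (0.58 to 0.64). EIF2AK3, which encodes the eIF2 kinase PERK, had 127 and 187.77 counts and a ratio of 0.67 (0.34 to 1.00), and the other 3 eIF2 kinases were not 1.5-fold different. With total-count scaling ATF4 and EIF2AK3 were at 0.50 and 0.56, under the 1.5-fold limit. Of 35 other ATF4 targets 30 passed the filter. Of these 10 passed the 1.5-fold limit upward and 0 downward, against 3.92% and 3.91% of all genes. Of the 30, 25 lay above 0, against 49.3% of all genes. Intervals lay above 0 for 21 and below 0 for 2, against 23.0% and 22.0% of all genes. Their ratios ran from -0.23 to 1.16, and their median was 0.29 (0.18 with total-count scaling). Under total-count scaling 9 passed the limit upward and 0 downward, against 2.72% and 6.34% of all genes, and 22 lay above 0. Intervals then lay above 0 for 17 and below 0 for 4, against 13.3% and 35.6% of all genes. With TMM scaling the ratios compare as follows. The largest were PPP1R15A (1.16), TRIB3 (1.09), CHAC1 (1.06) and DDIT3 (1.03), all feedback or death regulators of the stress response. This list was chosen with its behaviour in these libraries partly known, so its direction is no independent evidence.

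Other genes that handle tRNA were mixed. Of 21 genes of tRNA maturation and export, 8 lay above 0 and 13 below, with a median of -0.06. Of the 21, 1 was 1.5-fold lower, against 3.91% of all genes. It was TSEN15, a subunit of the tRNA splicing endonuclease (301 and 177 counts, a ratio of -0.66, -0.94 to -0.39). Among 8 further genes related to synthetases, TARSL2 and DTD2 were 1.5-fold lower, against the same 3.91%. TARSL2 is a paralogue of TARS, and DTD2 removes wrongly attached amino acids from tRNA. TARSL2 had 83 and 50 counts and a ratio of -0.62 (-1.17 to -0.11). DTD2 had 260.1 and 158.53 counts and a ratio of -0.61 (-0.90 to -0.32). The 6 cytosolic elongation factors had a median of 0.15 and none was 1.5-fold different.

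Factors that work with the loaded mitochondrial tRNAs had ratios on either side of 0. Of 12 measured mitochondrial translation factors, 7 lay above 0 and 5 below, with a median of 0.03 (-0.08 with total-count scaling), and 0 were 1.5-fold different. TUFM, the elongation factor that carries loaded tRNA to the mitochondrial ribosome, had 16610 and 16620 counts and a ratio of 0.10 (0.07 to 0.13). MTFMT, which formylates the methionyl-tRNA that MARS2 makes, was at -0.21 (-0.36 to -0.06). GATB, GATC and QRSL1, the subunits that turn the glutamyl-tRNA made by EARS2 into glutaminyl-tRNA, were at 0.19, 0.14 and 0.04. EARS2 itself was at -0.49. The genes of this list were named for their roles after the values were seen, and the difference between the lists was not tested.

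**Figure D4:**
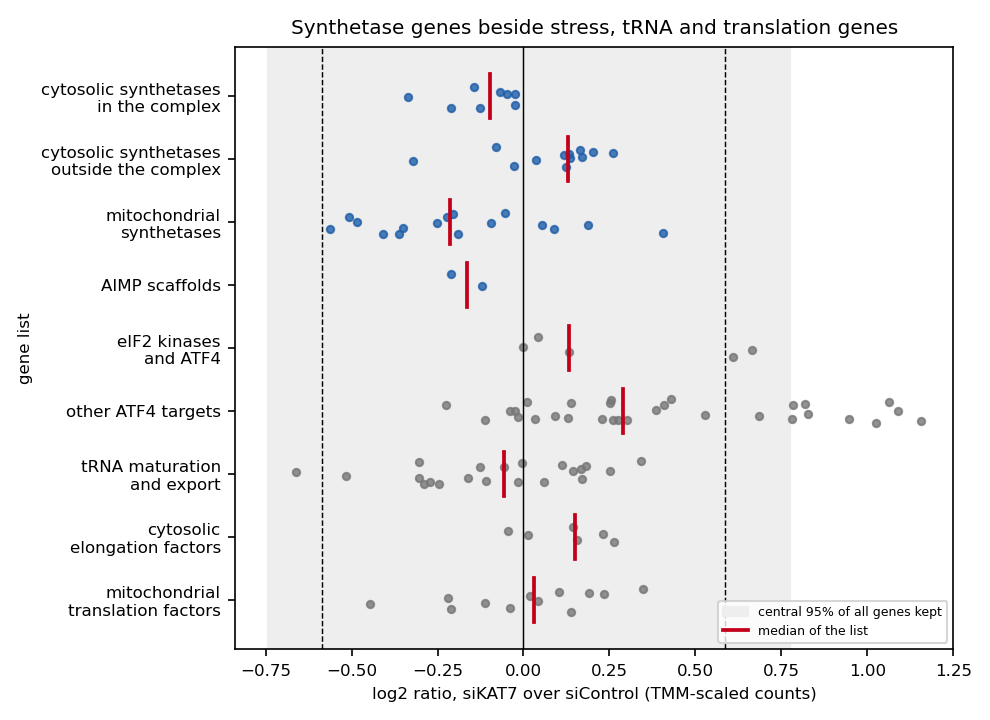
Log2 ratio of siKAT7 over siControl for each gene of the synthetase groups (blue) and of related lists (grey), with the median of each list in red, the central 95% of all 13217 genes shaded and 1.5-fold dashed. Of the blue points none passes a dashed line, while 10 of the other ATF4 targets pass the right one. Over all genes 3.92% were 1.5-fold higher.

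The authors' deposited table marks 0 of the 38 genes as significant. The authors' deposited table gives MARS2 a log2 fold of -0.67 with an adjusted p of 1.71e-08, EARS2 -0.59 with 6.79e-13, RARS2 -0.62, HARS2 -0.51 and CARS2 0.30. An adjusted p under 0.05 was given in the authors' deposited table for 10 cytosolic genes, 8 of them lower, and for 10 mitochondrial genes, 9 of them lower. Of all 13217 genes, 29.9% had such a p and were lower in the authors' deposited table, and 10.7% were higher. The member log2 folds of the authors' deposited table lie close to the ratios under total-count scaling. Such a p compares 2 libraries and not the conditions. KAT7 itself, at a log2 fold of -0.63, is not marked as significant in the authors' deposited table. The share of all genes with that mark was not counted.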

How the data were processed

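RNA-seq of 2 HCT116 cultures, 1 per siRNA, was deposited in the form of expected counts for each gene, an estimate in which 11.76% of values are not whole. Per the submitters' processing notes the authors used RSEM 1.3.3 and GRCh38.p13, and the sources used here do not give the aligner, annotation release or strand setting. Expected counts of named genes were rounded and scaled by edgeR 4.0.16 TMM factors (1.04 and 0.964) in R 4.3.3. Rows without a gene name (331, 1.11% and 1.67% of counts) were left out. The count columns are repeated in the table with 0 differing cells and were read once.

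Log2 ratios came from CPM with a prior count of 0.5, and exact 95% Clopper-Pearson intervals from the split of a gene's counts between libraries. Intervals of a difference between genes are exact conditional odds ratio intervals. Because reads carried no molecular identifiers, they may not be separate molecules. A mean of 1 CPM or more was required. A second deposited table holds the authors' own comparison, with a fold (ratio), a log2 fold, and p-values before and after adjustment. The sources used here do not name its tool. Gene length in bases is the authors' listed value. The procedure was tested on simulated counts.

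Members, lists and rules were chosen with earlier results of these data known. The rule for named genes allowed KAT7 and all 38 members. It gave in full the 6 cytosolic and 4 mitochondrial genes with the highest and lowest ratios, and the AIMP genes. The rule also gave in full cytosolic and mitochondrial pairs with starts within 1 kb, and members overlapping a 1.5-fold gene, with that gene. Of other lists it took up to 4 members past 1.5-fold with at least 100 summed counts. Gene models are from GENCODE 29 (GRCh38). Genes named outside this rule are marked in the text or were chosen by position, as overlapping genes and genes with nearby starts. Alternatives were other scalings (DESeq2 1.42.0 among them), prior counts, filters, thresholds and intervals.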

Additional observations from a re-analysis of the deposited data

How the results depend on the processing

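With 1 library per group nothing can be set against the spread between cultures. The results were recomputed under 11 alternative settings. The cytosolic median went from -0.02 to -0.13 under total-count scaling and to -0.13 with the authors' folds, and the number of mitochondrial genes 1.5-fold lower went from 0 to 3 under each of these. Each moved 10 of 38 members beyond their own intervals and changed the sign of 3. At the looser fold limit 1 cytosolic gene was lower, and 1 mitochondrial gene was higher and 6 lower, against 10.1% of all genes higher and 10.9% lower. DESeq2 size factors, a prior count of 5, a mean of at least 10 CPM (32 members left), no filter, a 2-fold limit, a 99% interval, added pseudogene counts and unrounded counts left the numbers of genes past the fold limit at 0 and the medians within the counting error, and 0 members changed sign. With DESeq2 size factors 5 cytosolic intervals lay below 0 in place of 4. Adding the models that overlap SARS2 and VARS2 on the same strand, a choice made after seeing the data, changed the sign of 1 of these 2 members, VARS2. No paired analysis was possible because each group has 1 library. Depth limits WARS2 most, with 55 and 48 counts.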

Other observations

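Several synthetase genes start close to a coding gene on the opposite strand. In GENCODE 29, 10 such pairs with starts within 1000 bases involve 11 of the 38 members, 1 of them being HARS with HARS2. CARS2 and ING1, which encodes a chromatin reader and starts 867 bases away, were both higher in siKAT7, at 0.41 and 0.31 (0.24 to 0.38), on 3133.1 and 3628.07 counts for ING1. RARS2 and ORC3, a subunit of the origin recognition complex that starts 64 bases away, had ratios of -0.51 and -0.34 (-0.74 to 0.05). AIMP2 and PMS2, a mismatch repair gene with near-identical copies elsewhere, start 120 bases apart and had -0.21 and -0.42 (-0.77 to -0.07). EARS2 was at -0.49 while UBFD1, 369 bases away, was at -0.05 (-0.15 to 0.06). SARS2 and MRPS12, a mitochondrial ribosomal protein gene, had 0.05 and 0.11 (0.03 to 0.19). Both genes had ratios of the same sign in 8 of the 10 pairs, and the share over all such pairs of genes was not counted. Among these 8, the intervals of the partners UBFD1, ORC3, DDX19B (of AARS) and LYRM4 (of FARS2) included 0. The pairs of unlike sign were KARS (-0.14) with TERF2IP (0.01) and WARS (-0.08) with WDR25 (0.06). CARS2 shares 326 exon bases with ING1, EARS2 370 with UBFD1 and SARS2 349 with MRPS12, so without strand such reads cannot be told apart. The pairs were chosen by position and their ratios carry no test. Apart from HARS and HARS2, the partner genes fall outside the rule for named genes.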
